A study of Mus musculus with 8 samples.

Results

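The BCL2 family genes described here are the 10 genes Bcl2l15, Bcl2, Bcl2l1, Mcl1, Bax, Bak1, Bid, Bbc3, Pmaip1 and Bcl2l11, taken by symbol from a table of 19457 genes, and all 10 had a row. They were chosen by their HdR against WT differences as well as by name: Bcl2l15 was known to stand among the strongest rises, and Mcl1 and Bbc3 among the falls. RNA was sequenced from mouse skin keratinocytes, the main epithelial cell of epidermis, in primary culture and not yet confluent. There were 4 HdR libraries, from mice with HOIL1 ΔRING1, and 4 WT libraries, from wild-type mice. HOIL-1L, the product of Rbck1, belongs to the complex that builds linear ubiquitin chains (LUBAC), and ΔRING1 names the loss of its first RING domain. The labels give no strain, age, treatment or Cre driver, and do not say whether libraries represent separate animals or cultures, so p-values measure only the spread between these libraries.

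Proteins of the BCL2 family decide whether the outer mitochondrial membrane stays intact. BCL2, BCL-XL (Bcl2l1) and MCL1 hold the membrane closed, BAX and BAK (Bak1) form the pores that release cytochrome c, and the BH3-only proteins BID, PUMA (Bbc3), NOXA (Pmaip1) and BIM (Bcl2l11) tip the balance by binding the guards or the pore formers. In epidermis the family takes part in the survival of basal keratinocytes and in the response to ultraviolet damage, and BID links death receptor signalling through caspase-8 to mitochondria.

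The deposited values are summed aligned bases per gene. They were scaled for library depth to aligned bases per megabase (Mb) of the library's scaled total, which is the level given below. Levels of different genes are compared only after division by the length of their merged exons. HdR libraries held 2.31 to 4.31 Gb and WT libraries 4.78 to 5.43 Gb, so every HdR library was shallower, and depth and genotype cannot be told apart. Rbck1 averaged 43.7 ± 1.87 in HdR and 87.5 ± 3.4 in WT (SD, n = 4 each), but coverage summed over the gene does not show the deletion itself. Keratinocyte markers were abundant in all libraries (Krt5, Krt14, Trp63, Itga6 and Col17a1 summed to 39500 to 40700 in HdR and 36900 to 40200 in WT). Of these 5, 3 rose in HdR by limma, Itga6 (log2 fold change 0.28 ± 0.050, SE, adjusted p = 0.000374), Col17a1 (0.14 ± 0.045, adjusted p = 0.0211) and Krt5 (0.10 ± 0.036, adjusted p = 0.0247), while Krt14 and Trp63 did not pass.

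Bcl2l15 was the member with the widest gap between the genotypes. It encodes BFK, a family protein with BH2 and BH3 regions that was described in mouse as a weak promoter of apoptosis. Its level was 24.7, 27.8, 22.7 and 27.9 aligned bases per Mb in the 4 HdR libraries, against 3.72, 2.78, 6.75 and 5.76 in the 4 WT libraries. The lowest HdR value lay well above the highest WT value, and WT 3 and WT 4 were the higher WT libraries. The means were 25.8 ± 2.52 in HdR and 4.75 ± 1.82 in WT (SD, n = 4 each), a ratio of 5.43 and a log2 fold change of 2.27 ± 0.23 (SE, on the log2 scale of the level plus 1). Relative to its mean, Bcl2l15 varied more among WT libraries (coefficient of variation 38.4%) than among HdR libraries (9.77%). Because that gap chose it, these values are a description and carry no test, as for all members. The signal behind it was 44.2 to 356 read-pair equivalents per library.

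**Figure D1:**
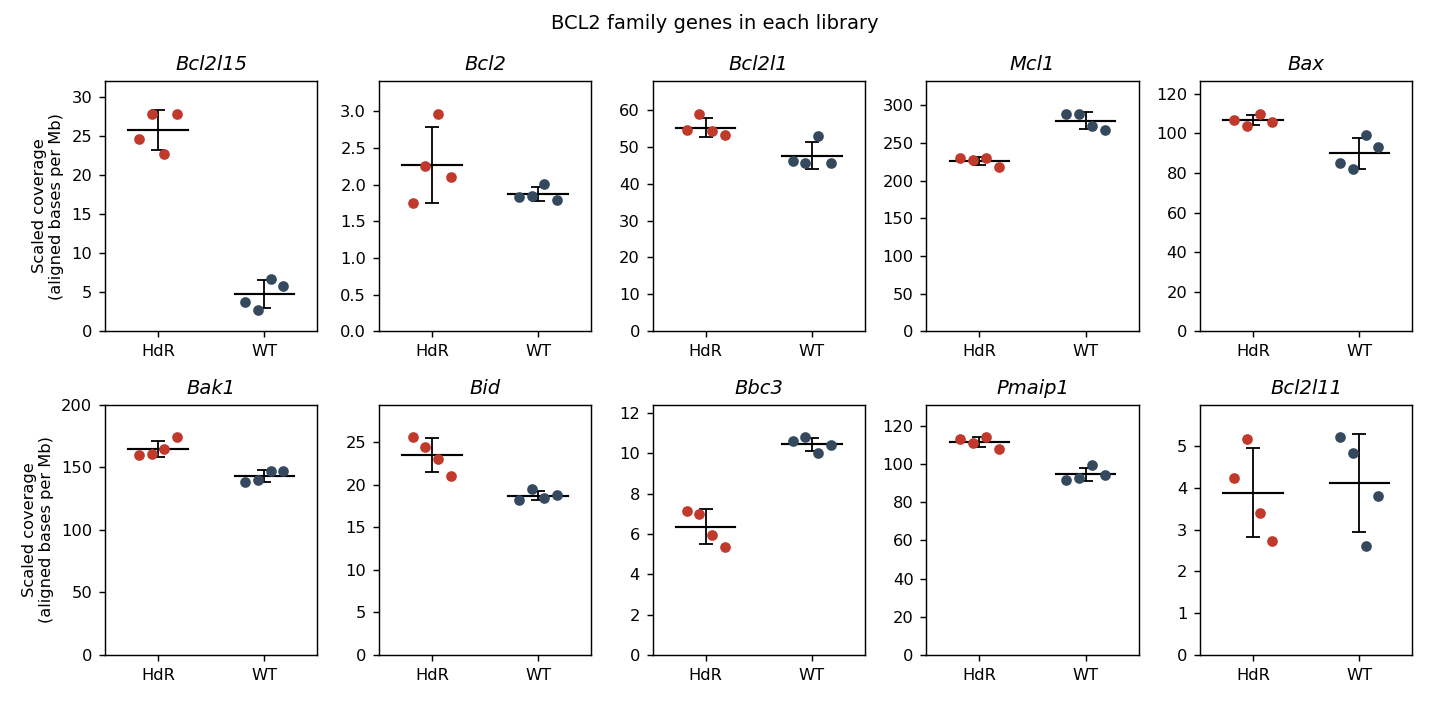
Scaled coverage (aligned bases per Mb, axes from 0) of the 10 BCL2 family genes in each of 4 HdR (red) and 4 WT (dark blue) libraries; bars are means ± SD. Bcl2l15 runs from 22.7 to 27.9 in HdR and from 2.78 to 6.75 in WT, Mcl1 and Bbc3 are lower in HdR, and Bcl2 and Bcl2l11 overlap between the genotypes.

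Bcl2l15 lies on GRCm38 chromosome 3, 103832601 to 103854618, plus strand, between Ap4b1 and Ptpn22, both on the same strand. Ptpn22, which begins 5.18 kb past its end and encodes a tyrosine phosphatase best known in lymphocytes, was also higher in HdR. Its level was 1.36, 2.03, 1.87 and 2.87 in HdR and 0.477, 0.188, 0.273 and 0.334 in WT, with no overlap (log2 fold change 1.18 ± 0.15, SE, n = 4 each). Its mean over all libraries reached 1, the minimum for testing, only through HdR, so no p is given. These are low levels, and the fold depends on the pseudocount of 1: it was 2.35 with 0.1 and 0.40 with 5. Ap4b1, a subunit of an adaptor complex of vesicle transport, ends 10.6 kb before Bcl2l15 and had 26.6 ± 1.8 in HdR and 26.6 ± 1.45 in WT (SD, n = 4 each), for a difference of -0.001 ± 0.063 in log2 (SE, limma adjusted p = 0.992). A window of 500 kb on either side was chosen after the values were seen. In it, 9 genes besides Bcl2l15, Ap4b1 among them, reached a mean of 1 in both genotypes. Of these, 3 rose (Dclre1b, Rsbn1 and Phtf1os, with log2 fold changes of 0.28 to 0.32), 6 did not pass and 0 fell. Over all 11870 genes tested, 21.2% were called higher and 23.8% lower. Gm43064, an annotated gene on the same strand, shares 569 exon bases with Bcl2l15. Gm43064 was not analysed here. How reads in the shared exon bases were assigned is not given in the sources used here, so those reads of the pair cannot be told apart.

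**Figure D2:**
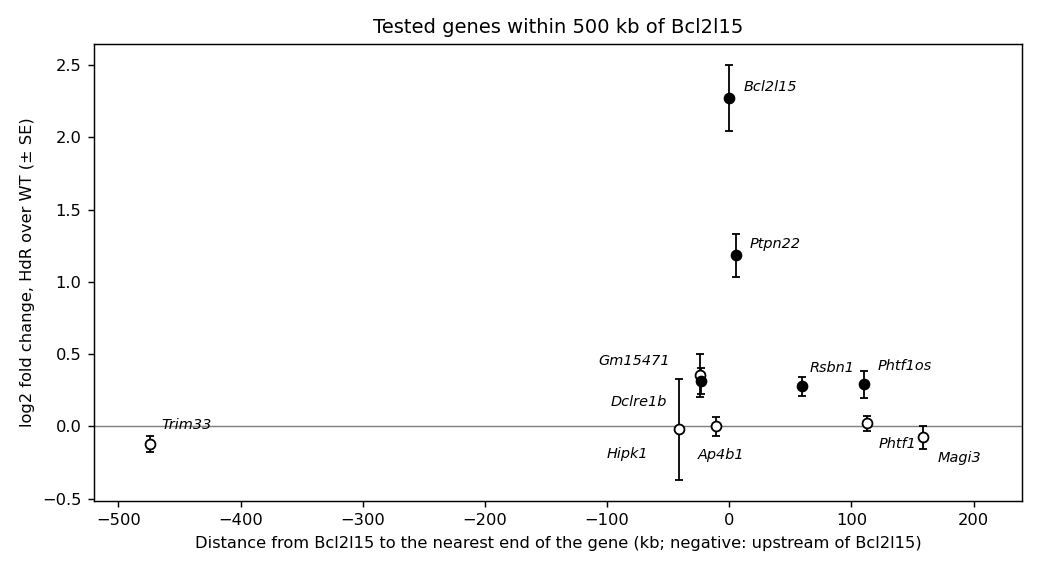
Log2 fold change (HdR over WT, ± SE) of the 10 tested genes within 500 kb of Bcl2l15, and of Bcl2l15 at 0, against distance in kb (negative is upstream of Bcl2l15); filled points passed limma adjusted p under 0.05 (Ptpn22 met the minimum level only through HdR) and open points did not. Bcl2l15 (2.27) and Ptpn22 (1.18) stand above the other neighbours, while Ap4b1 lies at -0.001.

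The promoter windows of 3 members are shown because they belong to the member with the highest fold and to those that were lower in HdR. Each is 250 bases before to 50 after a RefSeq start on GRCm38.p6, read 5′ to 3′ on the gene's strand, with every CG dinucleotide in capitals. They are chr3:103832446-103832745 (plus strand) for Bcl2l15, chr3:95658471-95658770 (plus) for Mcl1 and chr7:16309333-16309632 (plus), the most upstream of 3 starts, for Bbc3.
Bcl2l15: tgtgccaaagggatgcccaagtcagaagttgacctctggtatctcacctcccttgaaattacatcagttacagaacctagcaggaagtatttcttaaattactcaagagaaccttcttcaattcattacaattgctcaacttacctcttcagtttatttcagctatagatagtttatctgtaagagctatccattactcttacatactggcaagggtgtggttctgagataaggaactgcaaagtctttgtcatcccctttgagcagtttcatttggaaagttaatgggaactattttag
Mcl1: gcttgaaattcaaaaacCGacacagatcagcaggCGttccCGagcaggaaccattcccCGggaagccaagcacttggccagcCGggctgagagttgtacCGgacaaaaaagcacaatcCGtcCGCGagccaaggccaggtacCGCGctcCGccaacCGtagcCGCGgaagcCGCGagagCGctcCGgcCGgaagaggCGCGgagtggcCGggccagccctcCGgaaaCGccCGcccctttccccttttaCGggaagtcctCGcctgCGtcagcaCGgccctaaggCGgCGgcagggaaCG
Bbc3: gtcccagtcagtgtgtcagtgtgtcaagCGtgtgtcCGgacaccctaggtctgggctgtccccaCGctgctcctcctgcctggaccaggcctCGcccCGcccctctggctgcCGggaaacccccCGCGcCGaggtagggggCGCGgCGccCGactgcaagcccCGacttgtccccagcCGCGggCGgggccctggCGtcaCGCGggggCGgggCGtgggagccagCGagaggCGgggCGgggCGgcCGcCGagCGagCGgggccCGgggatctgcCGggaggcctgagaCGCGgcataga
The Bcl2l15 window held 0 CG dinucleotides and 38.3% GC, against 33 and 65.7% for Mcl1 and 34 and 76% for Bbc3. Of 32851 RefSeq windows of this length, 5.43% held no CG, with a median of 7 CG and 52.7% GC. The other 13 windows of the family, for 8 members, held 1 to 44 CG; the lowest number was at a Bcl2l1 start. Both strands were searched for 6 motifs. Of all windows, 7.81% hold an AP-1 site (TGANTCA), 13.6% a TATA box (TATAAA), 37.4% a CCAAT box (the letters of its name) and 35.7% a GC box (GGGCGG), and 4.51% hold an NF-κB site and 8.36% a p53 half-site. None of the 6 was found in the Bcl2l15 window. GC boxes, some overlapping each other, were found in 9 of the 14 windows of the family, CCAAT boxes in 3 (at 1 Bbc3 start and 2 Bcl2l11 starts), and a p53 half-site in that of Bax. NF-κB matches were found in 2 windows, at a Bcl2l1 start and, as 2 overlapping matches, in the Bbc3 window printed here. AP-1 sites and TATA boxes were found in none of the 14. A match is a description and not a bound site.

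Of the 10 members, 8 passed limma at adjusted p under 0.05, 6 higher and 2 lower in HdR, and in the same 8 the genotypes did not overlap. Of all genes tested, 45% were called in either direction and 41.1% did not overlap. Nothing is read from the members' count, because they were chosen with this contrast known. Against a fold of 1.2, 2 members were called, Bcl2l15 and Bbc3, where 7.47% of all genes tested were. The median log2 fold change of the members was 0.21, beside -0.01 over all genes tested.

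Among the anti-apoptotic genes, Mcl1 was lower in HdR and Bcl2l1 higher. Mcl1 encodes a short-lived guard protein that keratinocytes depend on, and lies on chromosome 3, 95658788 to 95663176. Its level was 230, 227, 230 and 218 in HdR, against 289, 289, 273 and 267 in WT. Every HdR library was below every WT library, with means of 226 ± 5.78 in HdR and 279 ± 11 in WT (SD, n = 4 each) and a log2 fold change of -0.30 ± 0.037 (SE). Bcl2l1, which encodes BCL-XL, had 54.5, 59, 54.2 and 53.2 in HdR and 46.2, 45.5, 53 and 45.6 in WT. WT 3 came close to the lowest HdR library, HdR 4, and the log2 fold change was 0.21 ± 0.055 (SE). Bcl2l1 (chromosome 2, 152780668 to 152831728) lies 448 kb from Rbck1 itself. Coverage over the whole gene does not separate its long and short splice forms, which act in opposite directions.

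Bcl2 itself was at a low level. Its level was 1.75, 2.26, 2.97 and 2.1 in HdR and 1.83, 1.85, 2.01 and 1.79 in WT, from 16.2 to 38.4 read-pair equivalents per library. The genotypes overlapped, with HdR 1 below all WT libraries and HdR 3 the highest of all 8, and the log2 fold change was 0.18 ± 0.13 (SE). Melanocytes are known for Bcl2 expression, and their markers were lower in HdR: of 7 markers 4 reached a mean of 1 in both genotypes, and 3 of them fell (Dct, Pmel and Tyrp1). Tyr and Mlana met the minimum for testing only through WT, at 0.635 and 0.8 in HdR and 1.85 and 1.48 in WT. The 7 had a summed level of 26.2 to 28.6 in HdR and 50.3 to 57.9 in WT, and none was at 0 in all libraries. The part of these cells in the Bcl2 values was not tested, and in such bulk samples fewer cells of a type and less RNA per cell cannot be told apart.

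Both effector genes among the members, Bax and Bak1, were somewhat higher in HdR. Bok, a family gene outside the members, was not (log2 fold change 0.026 ± 0.05, SE, limma adjusted p = 0.698). Bax (chromosome 7, 45461697 to 45466898) had 107, 104, 110 and 106 in HdR and 85.1, 82.2, 99.2 and 93 in WT. All HdR values were above all WT values, and the log2 fold change was 0.25 ± 0.052 (SE). Bak1 (chromosome 17, 27019810 to 27029009) had 160, 161, 165 and 174 in HdR and 138, 140, 147 and 147 in WT. Its groups were also separate, with a log2 fold change of 0.20 ± 0.039 (SE). Bak1 shares exon bases with Ggnbp1 on the opposite strand, whose mean level did not reach 1. Gm45808 shares 192 exon bases with Bax on the same strand. In Bcl2, D630008O14Rik shares 558 exon bases on the opposite strand. Neither was analysed here, nor were Mir3473f and Gm37053 within Bcl2 and Gm17812 and Gm44260 within Bid, which share no exon bases with the member.

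The BH3-only genes went in different directions. Bbc3, which encodes PUMA, a potent promoter of apoptosis induced by p53 and by other stress signals, was lower. Its level was 7.16, 7.01, 5.94 and 5.34 in HdR, against 10.6, 10.8, 10 and 10.4 in WT (means 6.36 ± 0.869 in HdR and 10.5 ± 0.34 in WT, SD, n = 4 each). The HdR libraries were spread more widely than the tightly grouped WT libraries but all lay below them, a ratio of 0.609 and a log2 fold change of -0.64 ± 0.094 (SE). Bbc3 is on chromosome 7, 16308393 to 16318205. Pmaip1, which encodes NOXA, another p53-induced protein that binds MCL1, was higher, at 113, 111, 114 and 108 in HdR and 91.7, 92.5, 99.6 and 94.4 in WT. Its groups were separate, with a log2 fold change of 0.24 ± 0.040 (SE). The p53-inducible pair Bbc3 and Pmaip1 differed from WT in opposite directions.

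Bid (chromosome 6, 120891930 to 120916853) was higher, at 25.6, 24.5, 23 and 21 in HdR and 18.2, 19.5, 18.5 and 18.8 in WT, a log2 fold change of 0.31 ± 0.068 (SE) with no overlap. It shares 628 exon bases with Bcl2l13 on the opposite strand, and the strand setting is not given in the sources used here, so some reads could belong to either gene; Bcl2l13 was lower in HdR. Bcl2l11, which encodes BIM, had 4.24, 5.18, 3.39 and 2.73 in HdR and 5.21, 4.84, 2.62 and 3.8 in WT. The groups overlapped fully, with coefficients of variation of 27.3% in HdR and 28.2% in WT and a log2 fold change of -0.06 ± 0.19 (SE). HdR 4, the shallowest library, was the lowest HdR library in 6 of the 10 members. Without it the log2 fold changes of all 8 called members kept their sign.

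Scaled for exon length, Mcl1, Bak1 and Bax were the most abundant members in both genotypes. In HdR the order per kb of exon was Bak1 (68.5 ± 2.56), Bax (67.6 ± 1.64), Mcl1 (66.2 ± 1.69), Pmaip1 (40.9 ± 0.913), Bcl2l1 (12 ± 0.559), Bcl2l15 (9.5 ± 0.928), Bid (6.63 ± 0.569), Bbc3 (3 ± 0.409), Bcl2l11 (0.484 ± 0.132) and Bcl2 (0.248 ± 0.0561), as mean aligned bases per Mb per kb (SD, n = 4). Bak1 and Bax overlapped there, as did Bax and Mcl1, while the other neighbours in that order did not. In WT Mcl1 came first at 81.7 ± 3.23, above Bak1 (59.5 ± 1.82) and Bax (57 ± 4.89), which overlapped each other and no other member. Bcl2l15 ranked 6 of 10 in HdR and 8 of 10 in WT, where it had 1.75 ± 0.672 and lay between Bbc3 (4.92 ± 0.16) and Bcl2l11 (0.513 ± 0.145). These lengths merge the exons of all annotated transcripts, so the order is approximate for genes with long alternative ends.

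**Figure D3:**
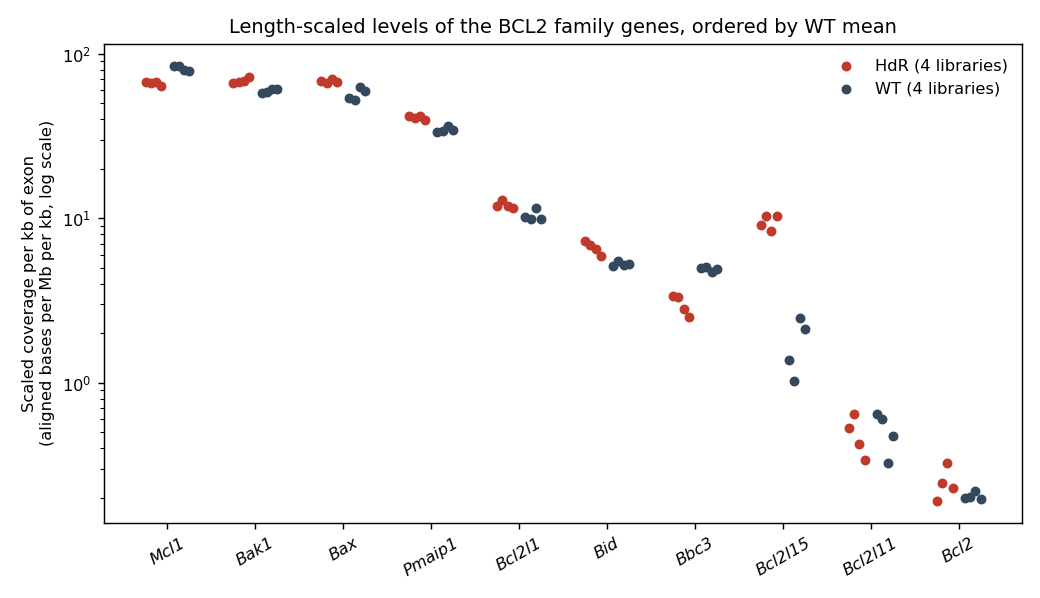
Length-scaled level (aligned bases per Mb per kb of exon, log axis) of each BCL2 family gene in 4 HdR (red, left) and 4 WT (dark blue, right) libraries, ordered by WT mean. Mcl1 is level with Bak1 and Bax in HdR and above them in WT, and Bcl2l15 lies at 8.37 to 10.3 in HdR libraries and at 1.02 to 2.49 in WT libraries.

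Summed by role on this length-scaled level, Bcl2, Bcl2l1 and Mcl1 came to 78.5 ± 1.92 in HdR and 92.3 ± 3.06 in WT (SD, n = 4 each). Bax and Bak1 came to 136 ± 3.06 in HdR and 116 ± 6.55 in WT, and the 4 BH3-only genes to 51 ± 1.81 in HdR and 45.3 ± 1.01 in WT. The BH3-only sum consists mostly of Pmaip1. The ratio of Bax and Bak1 to Bcl2, Bcl2l1 and Mcl1 was 1.69, 1.67, 1.74 and 1.84 in HdR, against 1.18, 1.17, 1.35 and 1.36 in WT. The ratio of Mcl1 to Bcl2l1 was 5.66, 5.16, 5.71 and 5.49 in HdR, against 8.38, 8.51, 6.92 and 7.85 in WT. In both ratios the genotypes were separate, and WT 3 and WT 4 were the WT libraries nearest to HdR. These are ratios of transcripts from the same contrast and are given with no test. Sums and ratios hold only the members, which were chosen with this contrast known. They leave out family genes such as Bok, at 124 ± 6.45 in HdR and 122 ± 8.42 in WT before division by length (SD, n = 4 each). Bcl2l2, an anti-apoptotic gene that was lower in HdR, is left out too, so the ratio is not a balance of the whole family.

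Of 16 other genes of the family, 14 had a row and 7 reached a mean of 1 and were tested. Of these 7, 4 fell, 3 did not pass and 0 rose by limma. The share called was 57.1%, beside 45% of all genes tested (21.2% higher and 23.8% lower). The median log2 fold change of the 7 was -0.17. At unadjusted p under 0.05, 5 were lower and 0 higher, and limma-voom called 5 lower and 0 higher. Bnip3, a mitophagy gene induced by hypoxia whose product has a divergent BH3 region, fell most, at 30.8, 35.1, 35 and 34 in HdR and 78.8, 68, 76.6 and 73.2 in WT (log2 fold change -1.11 ± 0.056, SE, adjusted p = 1.47e-10). Bcl2l2, which encodes the anti-apoptotic protein BCL-W, had 29.5, 29.2, 27.1 and 24.5 in HdR and 37.1, 37.7, 36.1 and 36.6 in WT (-0.41 ± 0.061, adjusted p = 3.53e-05). The calls of Bcl2l13, a mitochondrial mitophagy receptor (-0.12 ± 0.039, adjusted p = 0.0192), and of Bad, a BH3-only gene under growth factor control (-0.17 ± 0.064, adjusted p = 0.038), were narrow. That of Bcl2l13 was lost without HdR 1 (limma adjusted p = 0.0525), WT 1 (0.0563) or WT 2 (0.0506). It was also lost with upper-quartile scaling (0.111), library totals only (0.0835) and the replicate block (0.0516). That of Bad was lost without HdR 1 (0.12), HdR 3 (0.0877), HdR 4 (0.0723), WT 1 (0.0901), WT 3 (0.0787) or WT 4 (0.0629). The call of Bad was also lost with upper-quartile scaling (0.106), library totals only (0.0713), no filter (0.0611), thinning to the smallest library (0.0589) and the replicate block (0.0765).

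Bnip3l, a paralogue of Bnip3, averaged 151 ± 6.18 in HdR and 165 ± 14.2 in WT (SD, n = 4 each, log2 fold change -0.12 ± 0.053, SE, limma adjusted p = 0.076). It was called lower without WT 2 or WT 4. Bok and Bcl2l12 did not pass either. Bcl2a1a, Bcl2a1b, Bcl2l10, Bik, Bmf, Hrk and Bcl2l14 were under the filter, and Bcl2a1c and Bcl2a1d were not analysed here. Among those under the filter, Bmf, a BH3-only gene, averaged 0.358 ± 0.144 in HdR and 0.823 ± 0.246 in WT, and Hrk, another, 0.0323 ± 0.0387 in HdR and 0.131 ± 0.0343 in WT (SD, n = 4 each); these were picked after their values were seen.

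Of 11 genes tested that act with or after BAX and BAK, 6 rose by small amounts by limma, 5 did not pass and 0 fell. The share called was 54.5%, beside 45% of all genes tested (21.2% higher and 23.8% lower). The median log2 fold change of the 11 was 0.15. At unadjusted p under 0.05, 7 were higher and 1 lower, and limma-voom called 7 higher and 0 lower. Apaf1, the apoptosome scaffold gene, rose to 45.6, 45.4, 48.5 and 51.2 in HdR, against 37.2, 38.8, 36.7 and 37.5 in WT (log2 fold change 0.34 ± 0.051, SE, adjusted p = 5.12e-05). Vdac2, a mitochondrial channel gene whose product binds BAK, averaged 214 ± 2.53 in HdR and 179 ± 3.63 in WT (SD, n = 4 each, adjusted p = 1.04e-05). The cytochrome c gene Cycs (0.24 ± 0.047), the mitochondrial protease gene Htra2 (0.24 ± 0.053) and Vdac1 (0.15 ± 0.037), another channel gene of the outer membrane, rose too (log2 fold change, SE). Mtch2 was the other gene that rose, and its call was lost without WT 4 and HdR 4 together (adjusted p = 0.0635). None of the 11 was called against a fold of 1.2 by limma's treat, where 7.47% of all genes tested were.

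Regulators of the family were split. Of 16 tested, 2 rose, 4 fell and 10 did not pass by limma (median log2 fold change 0.035). The share called was 37.5%, beside 45% of all genes tested. There were 4 higher and 4 lower without WT 2, and 4 higher and 3 lower with upper-quartile scaling. Trp53, which encodes p53, rose to 159, 162, 174 and 164 in HdR, against 129, 133, 133 and 137 in WT (log2 fold change 0.31 ± 0.038, SE, limma adjusted p = 5.88e-06). Mdm2, the p53 ligase gene and itself a p53 target, named after its value was seen, did not pass. Rel, an NF-κB subunit gene, was at 0.31 ± 0.084 (adjusted p = 0.00689). Ddit3, which encodes CHOP, a stress factor known to induce Bbc3 and Bcl2l11, fell to 6.35, 7.48, 8.39 and 6.79 in HdR, against 12, 12.5, 15 and 12.6 in WT (-0.76 ± 0.095, adjusted p = 5.89e-06). Atf4, its upstream partner in the integrated stress response, fell by 0.29 ± 0.042 on the log2 scale (adjusted p = 2.99e-05), and Stat3 fell by 0.15 ± 0.039 (adjusted p = 0.00407). Rela was the other gene that fell, and its call was lost with upper-quartile scaling (adjusted p = 0.0594) and after thinning to the smallest library (0.0539).

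**Figure D4:**
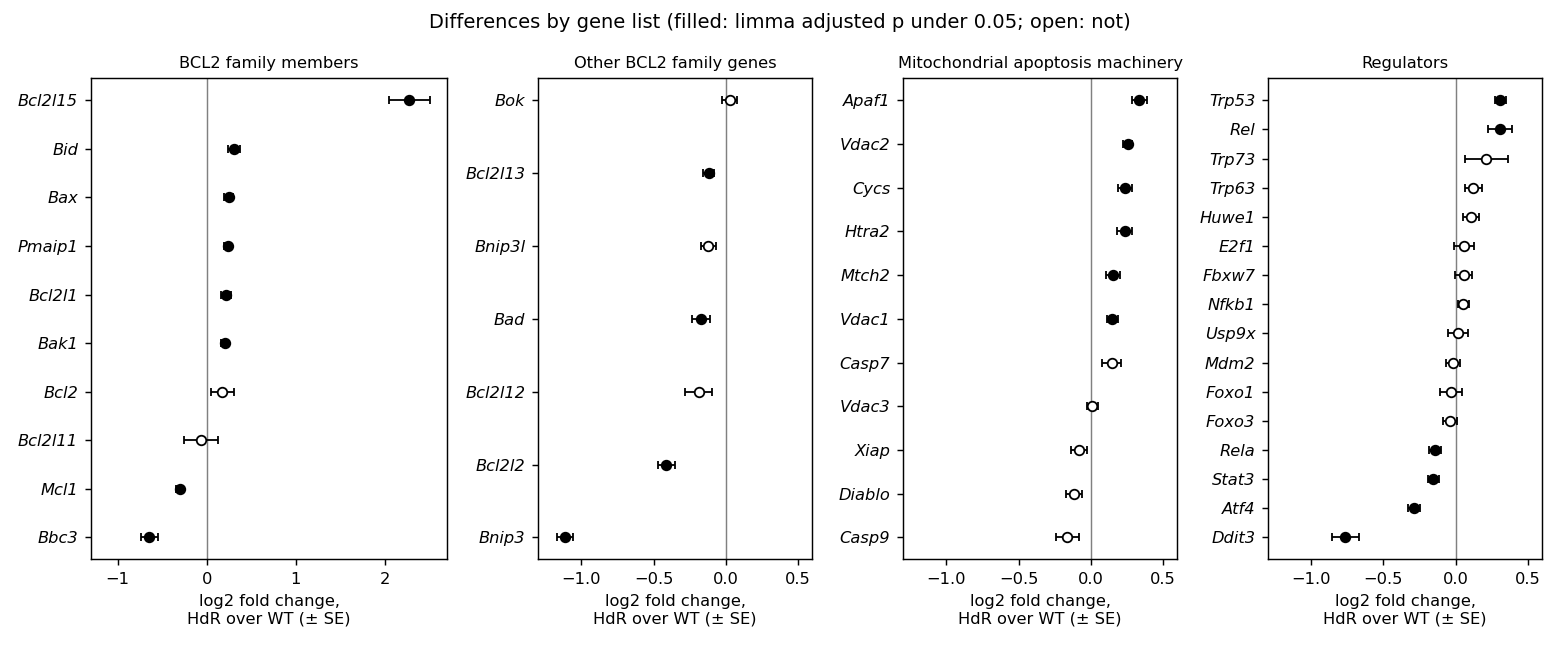
Log2 fold change (HdR over WT, ± SE) of the tested genes in 4 lists: the 10 BCL2 family members, 7 other family genes, 11 genes of the mitochondrial apoptosis machinery and 16 regulators; filled points passed limma adjusted p under 0.05 and open points did not. Bcl2l15 at 2.27 lies far right of the other members, and none of the 7 other family genes outside the members was called higher.

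The genes most like Bcl2l15 in log2 level over the 8 libraries were Tm4sf1 (Pearson r = 0.9969), Npm1 (0.9963), Pttg1ip (0.9963), Lsm6 (0.9963) and Krt42 (0.9961). These values reflect the gap between the genotypes, which many genes share. On deviations from the genotype means, over the same 8 libraries, the highest were Stk19 (0.9896), Calm3 (0.9883), Cs (0.9859), Arpc1b (0.9758) and Basp1 (0.9729). Bcl2l15 varied more among WT libraries (coefficient of variation 38.4%) than among HdR libraries (9.77%), so these correlations rest mostly on the WT libraries. Both sets are the extremes of 11869 genes and are given as descriptions.

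Suprabasal keratinocyte markers moved with the genotype as well. Of 5 tested (Krt1, Krt10, Ivl, Lor and Sbsn), 4 were lower in HdR and Ivl did not pass, with a summed level of 1070 to 1200 in HdR and 1520 to 1960 in WT. Fibroblast, immune and endothelial markers were at or near 0 except Cd68. It was lower in HdR with no overlap, at 39.5 ± 0.569 against 56.4 ± 5.84 in WT (SD, n = 4 each, limma adjusted p = 8.12e-06). Of 6 fibroblast markers 5 had a row, with sums of 0.121 to 3.86 in HdR and 0.118 to 0.73 in WT. Of 5 immune markers Lyz2 and Cd207 were at 0 in all libraries. The immune sums were 38.9 to 40 in HdR and 47.9 to 60.6 in WT. The 3 endothelial markers summed to 1.04 to 1.46 in HdR and 0.268 to 0.627 in WT. The part of these shifts, and of those of the basal markers Itga6, Col17a1 and Krt5, in the differences of the BCL2 family genes was not tested.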

How the data were processed

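RNA from primary mouse keratinocytes (4 HdR and 4 WT libraries) was extracted with the RNeasy mini kit and made into libraries with an NEBNext Ultra II kit, per the labels' protocols. The submitters' processing notes name the build GRCm38; the aligner, counter, annotation and strand setting are not given in the sources used here. The deposited values were read as signal: coverage, the summed aligned bases per gene, not scaled for depth or length, since the commonest values were 302, 604 and 906 and only 16.9% of values under 10 such steps were whole multiples. Dividing by 302 gives read-pair equivalents, of which libraries held 7.64 to 18 M. As coverage is not a count of molecules, no counting interval is given.

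Each library was scaled with trimmed-mean (TMM) factors, trimming 30% of log ratios and 5% of levels at each end. limma 3.58.1 in R 4.3.3 (mean trend, robust variance; statmod 1.5.0) was fitted to log2(level + 1) for all 11870 genes with a mean of at least 1, HdR minus WT, two-sided, with Benjamini-Hochberg adjustment over all of them. Tested on simulated data for HdR minus WT with 11866 genes, the fit found 92% of the 1.5-fold changes and 100% of the 2-fold changes, with 3.52% of its calls false. The simulation changed only 100 tested genes at each fold and gave every gene the same spread setting, whereas 45% of the real genes tested were called. It held no changes under 1.5-fold, which most called members show, so these rates do not carry over to them. Exon lengths and positions came from GENCODE vM21 (GRCm38). Promoter windows came from a set of RefSeq starts that held 9 of the 10 members, without Pmaip1. Plots used matplotlib 3.10.9 (Python 3.11.15).

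The members and lists were chosen with earlier results of these data known. Genes were named by a rule: all members, Rbck1, up to 5 tested genes with the smallest p from each of 3 further lists, those under the filter by name, the genes overlapping a member or nearest to Bcl2l15, and the 5 most like Bcl2l15 by either measure; exceptions are marked. A gene of the machinery list is not reported here, so counts over that list are of the other 11. Alternatives changed the scaling, pseudocount, filter, depth, variance model, null fold, replicate block and libraries. No library was left out of the comparison.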

Additional observations from a re-analysis of the deposited data

Results flagged for a closer look

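Among 94 groups of 4 libraries examined (tested members and list genes in each genotype), 2 had a library far from the other 3, where chance flags about 1 group in 20. Bcl2l1 in WT 3 was at 53 aligned bases per Mb, against 45.5 to 46.2 in the other WT libraries; without WT 3 the log2 fold change of Bcl2l1 was 0.26, beside 0.21 with it. Casp9, the initiator caspase gene of the apoptosome, was at 11.4 in WT 3, against 12.5 to 12.6 in the other WT libraries. WT 3 was the deepest library and the highest WT library in 5 of the 10 members.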

How the results depend on the processing

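Over 20 alternatives the number of BCL2 family members called stayed at 8, except against a fold of 1.2, where it was 2. That test also called 887 genes over the whole table, 1 other BCL2 family gene (Bnip3), 0 genes of the mitochondrial machinery and 1 regulator (Ddit3). The 4 calls among other BCL2 family genes became 2 with the replicate block, with library totals only and with upper-quartile scaling, and ran from 2 (without HdR 1 or WT 1) to 4 with each library left out. Leaving out each library in turn gave 4561 to 5289 calls over all genes, 8 in every case for the members, 6 in every case for the machinery and 6 to 8 for the regulators. Of 198 log2 fold changes of members under alternatives, 196 stayed within the replicate spread and 0 called values changed sign. The other 2 moved, both with a pseudocount of 5 (Bcl2l15 at 1.67 and Bbc3 at -0.446). That spread is the SD of single libraries within a genotype, a loose limit for a difference of means. The changed filters, the replicate block and the test against a fold of 1.2 leave the fitted fold changes as they were, so those values could not move. Bcl2 and Bcl2l11 had no value under the stricter filter, and the sign of Bcl2l11, not called in any, varied (-0.219 to 0.0591). Upper-quartile scaling made 57.7% of all calls higher, against 47.1%. Same-numbered HdR and WT libraries did not deviate together (correlations -0.222 to 0.0277 across genes), so the numbers were not taken as pairs; the block called 4755 genes. Depth limits Bcl2 and Bcl2l11 most, at 16.2 to 85.7 read-pair equivalents per library.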
